A study of Homo sapiens with 20 samples.

Results

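The 10 genes FOS, FOSB, FOSL2, JUN, JUNB, JUND, EGR1, IER2, ATF3 and KLF6 were followed through mRNA-seq and chromatin-associated RNA-seq (chrRNA-seq) of human embryonic kidney cells in which Dicer, Ago2 or Drosha was targeted by a short hairpin RNA. They were chosen by symbol from a list of immediate early genes, and all 10 were found among the 57087 genes of the files and passed the filter on low counts in every fit. Immediate early genes are transcribed within minutes of a growth factor, stress or serum signal, without a need for new protein synthesis. Kinase cascades activate factors such as SRF with its ternary complex partners and CREB at their promoters, and paused RNA polymerase II is released. Their transcripts are short-lived, in part through AU-rich elements. FOS, FOSB and FOSL2 pair with JUN, JUNB or JUND to form the AP-1 transcription factor. EGR1 and KLF6 are zinc finger factors, ATF3 is a basic leucine zipper factor of the ATF/CREB family, and IER2 is a short-lived nuclear regulator.

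The mRNA-seq samples were 3 wt HEK293T samples and 3 samples of the cells labelled HEK293 2B, which carry an inducible hairpin against DICER1 (shDicer). Both groups received 3 µg/ml doxycycline for 7 days. ChrRNA-seq, which reads RNA bound to chromatin as a proxy for nascent RNA, covered 2 samples each of wt, shDicer, shAgo2 and shDrosha cells, all labelled HEK293. The hairpins against Dicer and Ago2 were induced in recombinant HEK293T-REx lines with 3 µg/ml doxycycline for 72 h. The study's methods describe shDicer lines with and without a TAP-tagged Dicer, and which was sequenced is not given in the sources used here. The shDrosha cells were transfected with plasmid, and neither doxycycline nor a mock transfection is stated for them or for the chrRNA-seq wt cells. No inducible line with a control hairpin is among these 14 samples, so hairpin and cell line cannot be told apart in mRNA-seq, where both groups had doxycycline, and hairpin, doxycycline and cell line cannot be told apart in chrRNA-seq of the inducible lines. The labels do not say whether replicates were separate cultures, so p-values measure the spread between these samples, which may be technical.

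Depth ranged from 10216430 to 17215978 estimated counts per mRNA-seq sample and from 17484067 to 21553760 per chrRNA-seq sample. The targeted transcript fell in mRNA of shDicer cells, where DICER1 went from 247 ± 13.5 to 87.8 ± 6.92 CPM (counts scaled to the library size; SD, n = 3, adjusted p = 1.28e-07 from edgeR). In chrRNA-seq, AGO2 fell from 247 ± 10.7 to 161 ± 2.07 CPM in shAgo2 cells (SD, n = 2, adjusted p = 9.29e-05), where DICER1 rose to 209 ± 7.51 CPM (adjusted p = 3.60e-05). DICER1 was at 122 ± 3.78 CPM in wt and 108 ± 0.877 in the libraries labelled shDicer (adjusted p = 0.166), and DROSHA was at 150 ± 5.24 CPM in wt and 157 ± 12.9 in the libraries labelled shDrosha (adjusted p = 0.697). For DICER1, both shDicer libraries (107 and 108 CPM) lay below both wt libraries (119 and 124), as in 33.9% of all genes. The study measured Drosha, Dicer and Ago2 transcripts by qRT-PCR in the samples used for chrRNA-seq. It also reports successful knockdown on western blots. Of 8 markers of other cell types, the summed level was 2.35 to 3.99 CPM in mRNA of wt and 11.8 to 14.4 in shDicer cells, where HBB went from 0 in every library to 10.2 ± 1.47 CPM. In chrRNA-seq the sum was 62.1 to 65.3 CPM in wt, 68.5 to 71.3 in shDicer, 80.7 to 83.2 in shAgo2 and 68.5 to 69.2 in shDrosha cells, carried by GFAP, COL1A1 and PECAM1. ALB, MYOD1 and COL3A1 were below 1 CPM there, and HBB was at 0 in wt and shDrosha and at 0.82 and 0.827 CPM in shDicer and shAgo2 cells. The 8 HEK293 markers moved in both directions. NEFL, a neurofilament gene, went from 16.6 ± 2.40 to 454 ± 261 CPM in mRNA of shDicer cells, and its chromatin RNA was at 12.0 ± 1.54 CPM in wt and 11.6 ± 0.826 in shDrosha cells against 160 ± 51.1 in shDicer and 90.3 ± 1.39 in shAgo2 cells. NEFM, another neurofilament gene, went from 6.27 ± 0.205 to 0.414 ± 0.159 CPM in mRNA and from 24.5 ± 0.485 to 2.51 ± 0.273 and 0.918 ± 0.371 in chromatin RNA of shDicer and shAgo2 cells, with 11.6 ± 0.00141 in shDrosha cells. The summed level of the list was 461 to 543 CPM in wt mRNA and 840 to 1284 in shDicer mRNA, and 625 to 686 in wt and 350 to 549 in the other chromatin RNA. The part of these differences between lines in the results below was not tested. Since these are bulk samples, fewer cells that transcribe a gene and less RNA per cell cannot be told apart.

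Immediate early promoters are known for SRF, CREB and AP-1 sites close to the start site, and 10 stretches of the members are shown. They hold every match of the CArG box, the full CRE, the AP-1 site, the EGR site and the TATA box in the members, with the CRE core of FOS and FOSB, which lies next to their TATA box. The CRE cores of the other members and the CCAAT boxes are not printed. All 10 members matched a promoter of RefSeq on GRCh38.p14, from 250 bases before to 50 bases after the start site, and 35116 promoters were searched in all. Only the first promoter listed for a member was taken, so other start sites of the same gene are not covered. The capitals mark the motif, and each stretch is written 5′ to 3′ on the strand of the gene.
EGR1 CArG box at chr5:138465364-138465393, plus strand: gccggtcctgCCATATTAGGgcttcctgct
EGR1 CArG box at chr5:138465386-138465415, plus strand: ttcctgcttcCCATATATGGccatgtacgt
JUND CRE at chr19:18281804-18281833, minus strand: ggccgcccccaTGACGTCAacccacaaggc
FOS CRE core at chr14:75278752-75278781, plus strand: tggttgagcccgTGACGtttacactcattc
FOSB CRE core at chr19:45467924-45467953, plus strand: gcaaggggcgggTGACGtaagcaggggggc
FOS TATA box at chr14:75278783-75278812, plus strand: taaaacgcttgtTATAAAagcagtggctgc
FOSB TATA box at chr19:45467954-45467983, plus strand: gggtcccgggcaTATAAAtacaggctggcg
JUNB TATA box at chr19:12791443-12791472, plus strand: tgactagcgcggTATAAAggcgtgtggctc
FOSL2 AP-1 site at chr2:28392851-28392880, plus strand: tgccattgtagTGACTCAtctcgggcagag
KLF6 EGR site at chr10:3785255-3785284, minus strand: ggggagccagGCGGGGGCGgagggggaggc

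The CArG box, the site of SRF, was found in 1.29% of all promoters and, of the members, in EGR1, where it starts 105 and 83 bases before the start site. The full cAMP response element (CRE, TGACGTCA) was in 1.85% of promoters and in JUND. Its core TGACG, which overlaps the full element, was in 24.6% of promoters and in 8 members, FOS, FOSB, FOSL2, JUN, JUNB, JUND, EGR1 and IER2. The AP-1 site TGACTCA was in 4.95% of promoters and in FOSL2. The site of EGR1 itself (GCGNGGGCG, searched with T or G at N) was in 5.77% and in KLF6. The TATA box (TATAAA, on the gene's strand only) was in 7.33% and in FOS, FOSB and JUNB. The CCAAT box (CCAAT) was in 34.6% of promoters and in JUN, JUNB, JUND, ATF3 and KLF6. Apart from the TATA box, both strands were searched, and a match describes the letters of this window and not a bound site.

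The members lie on 6 chromosomes of GRCh38. FOS is at chr14:75278826-75282230, FOSL2 at chr2:28392448-28417317, EGR1 at chr5:138465479-138469303 and KLF6 at chr10:3775996-3785281. FOSB (chr19:45467995-45475179), JUNB (chr19:12791486-12793315), JUND (chr19:18279694-18281622) and IER2 (chr19:13150411-13154911) are on chromosome 19, and JUN (chr1:58776845-58784048) and ATF3 (chr1:212565334-212620777) on chromosome 1. The main transcripts of JUN, JUNB and JUND have no intron, and those of the other 7 members have between 1 and 3. Of the 31-nt subsequences of their transcripts, none was shared with another gene for 7 members, and 47 of 5682 (0.83%) were shared for FOSB, 2 for EGR1 and 1 for JUND. FOSB, JUNB and IER2 overlap a gene on the opposite strand and FOSL2 overlaps 1 gene on each strand. The reads were assigned by strand.

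Compared per transcript length, JUN was the most abundant member in wt cells in both assays. The unit here is TPM, which divides counts by transcript length before scaling to the library. In wt chromatin RNA JUN was at 20.2 ± 0.767 TPM (SD, n = 2) and KLF6 at 17.9 ± 2.70, so that these neighbours overlapped. The order went on with JUND (5.07 ± 0.0359 TPM), ATF3 (4.37 ± 0.107), IER2 (3.37 ± 0.521), JUNB (2.14 ± 0.0427), FOSL2 (1.81 ± 0.406), FOSB (1.37 ± 0.116), FOS (0.653 ± 0.333) and EGR1 (0.161 ± 0.0173). None of these later neighbours overlapped between their replicates, although JUNB and FOSL2 were close (2.11 and 2.10 TPM at their nearest). In chromatin RNA of every group JUN was highest and EGR1 lowest of the 10. In wt mRNA the order was different. After JUN (16.9 ± 4.95 TPM, n = 3) came ATF3 (9.95 ± 3.92), FOS (9.71 ± 5.02), JUND (2.57 ± 0.649), KLF6 (1.82 ± 0.568), FOSB (1.69 ± 0.451), EGR1 (1.01 ± 0.628), IER2 (0.873 ± 0.393), JUNB (0.396 ± 0.108) and FOSL2 (0.341 ± 0.199). Replicates of neighbours overlapped here except between FOS and JUND and between IER2 and JUNB.

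**Figure D1:**
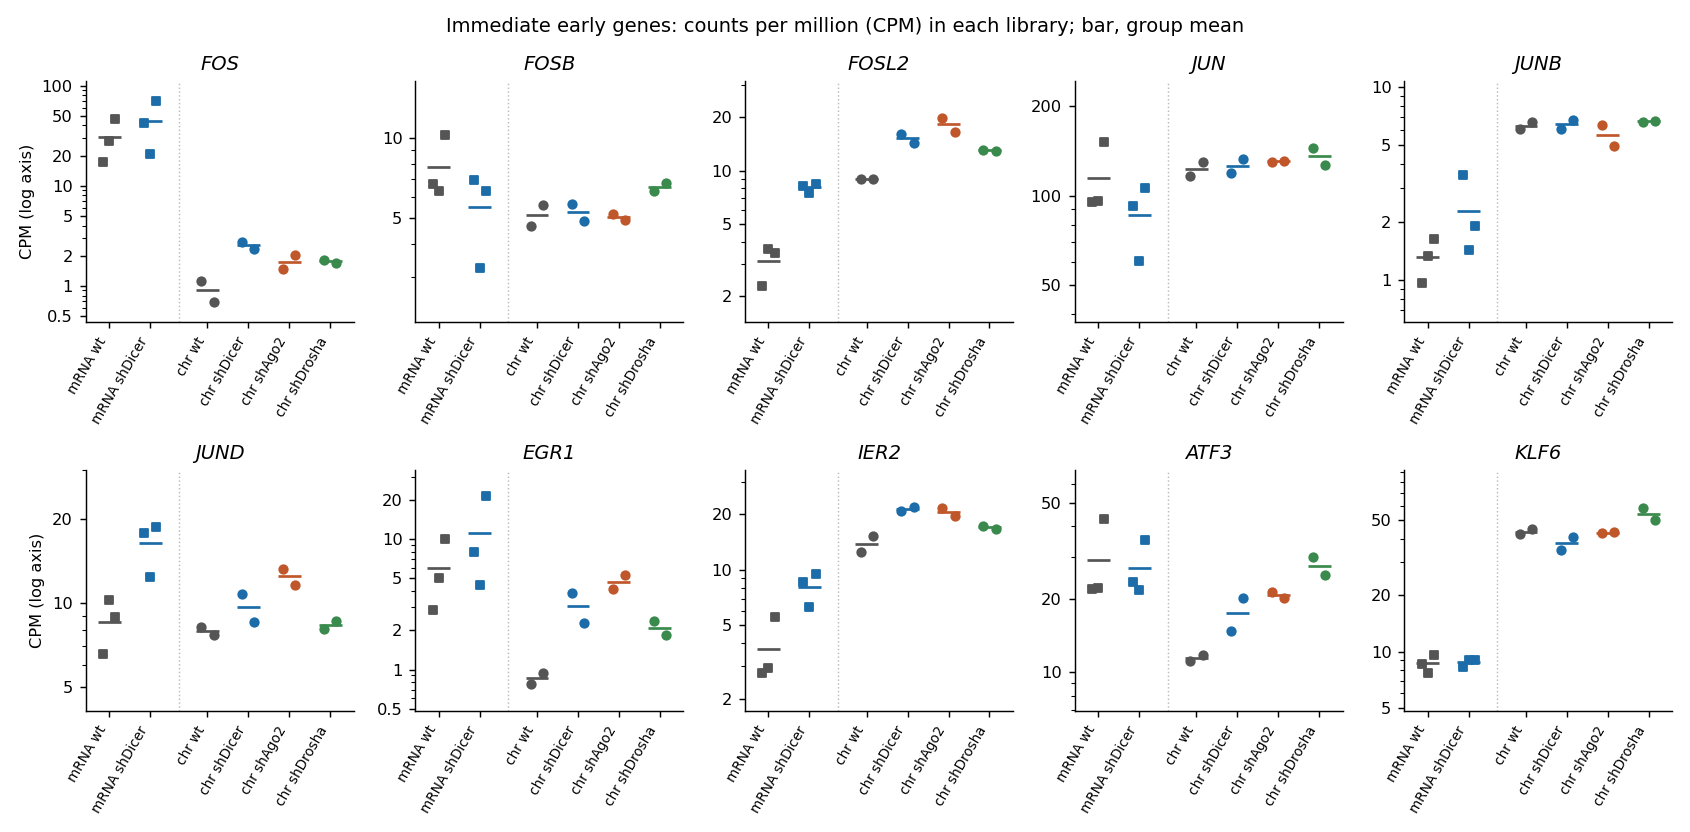
Level of each member in every library as CPM on a log axis, 1 panel per gene, with squares for mRNA-seq and circles for chrRNA-seq and a bar for the group mean. In chromatin RNA, EGR1 lies at 0.771 and 0.947 CPM in wt and between 1.85 and 5.29 in the knockdown groups, and JUN lies between 116 and 144 in all 8 libraries.

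To follow the members at chromatin, chrRNA-seq of the libraries labelled shDicer, in which DICER1 was not called lower, was compared with wt. FOS, FOSL2, EGR1 and IER2 rose, and no member fell, with a median log2 fold change of 0.45 over the 10 members against 0.0072 over all 32874 genes tested. At an adjusted p-value under 0.005, 4 of 10 members were called higher and 0 lower, and 11.0% of all genes were called higher and 10.5% lower. EGR1 was at 0.771 and 0.947 CPM in wt and at 3.84 and 2.28 in shDicer cells. The wt values rest on 13 and 15 counts. Its log2 fold change was 1.83 (SE 0.34, adjusted p = 0.0011 from edgeR), with both shDicer libraries above both wt libraries. FOS, the partner of JUN in the classical AP-1 dimer, was at 1.13 and 0.695 CPM in wt and at 2.74 and 2.33 in shDicer cells. This gave a log2 fold change of 1.46 (SE 0.30, adjusted p = 0.00229), from 19 and 11 counts in wt. FOSL2, a FOS family member without a strong activation domain, went from 8.95 and 9.03 CPM to 16.1 and 14.4 (log2 fold change 0.76, SE 0.13, adjusted p = 0.000522). IER2 went from 12.5 and 15.3 CPM to 20.8 and 21.8 (log2 fold change 0.62, SE 0.11, adjusted p = 0.00113).

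The other 6 members did not pass the threshold in shDicer chromatin RNA. ATF3, a stress-induced factor, was nearest to it, at 11.1 and 11.7 CPM in wt and 14.8 and 20.2 in shDicer cells (log2 fold change 0.62, SE 0.15, adjusted p = 0.00658). The log2 fold changes of the JUN family were between 0.03 and 0.28. JUN, the main DNA-binding partner in AP-1, was at 116 and 130 CPM in wt and 119 and 133 in shDicer cells, JUNB at 6.05 and 6.57 against 6.10 and 6.73, and JUND at 8.18 and 7.70 against 10.8 and 8.53. FOSB, the remaining FOS family gene among the members, was at 4.68 and 5.62 CPM in wt and 5.63 and 4.87 in shDicer cells. KLF6 was at 42.1 and 45.0 CPM in wt and 34.9 and 40.8 in shDicer cells, with a log2 fold change of −0.20 (SE 0.10, adjusted p = 0.138). In 6 members both shDicer libraries were above both wt libraries, as in 34.8% of all genes, and in 1, KLF6, both were below, as in 33.9%. The number of members called was 0 without wt replicate 1, 1 without wt replicate 2, 3 without shDicer replicate 1 and 2 without shDicer replicate 2. The call of FOS was lost in each of these 4 cases and with DESeq2.

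In shAgo2 chromatin RNA, compared with the same wt libraries, EGR1, FOSL2, ATF3, JUND and IER2 rose and no member fell. The 5 members called of 10, and 0 called lower, stand beside 12.5% of all genes called higher and 12.1% called lower, and the median log2 fold change was 0.61 over members and 0.0028 over all genes. EGR1 was at 4.13 and 5.29 CPM in shAgo2 cells, above both wt libraries, a log2 fold change of 2.45 (SE 0.32, adjusted p = 6.90e-05). FOSL2 was at 19.8 and 16.5 CPM (log2 fold change 1.02, SE 0.12, adjusted p = 4.31e-05). ATF3 was at 21.5 and 20.2 CPM (0.87, SE 0.15, adjusted p = 0.000544). These 3 genes thus had shAgo2 libraries well apart from wt. JUND, the JUN family member that is expressed most constitutively, was at 13.3 and 11.6 CPM (0.65, SE 0.14, adjusted p = 0.00279). IER2 was at 21.6 and 19.6 CPM (0.57, SE 0.11, adjusted p = 0.00178).

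FOS was at 1.48 and 2.02 CPM in shAgo2 cells, with a log2 fold change of 0.92 (SE 0.32, adjusted p = 0.0363) that did not pass. The log2 fold changes of FOSB, JUN, JUNB and KLF6 were between −0.14 and 0.09. In JUNB, 1 of the shAgo2 libraries (4.97 CPM) was below both wt libraries and the other (6.39) between them. Both shAgo2 libraries were above both wt libraries in 6 members, as in 36.8% of all genes, and below in 0, as in 36.0%. The number called was 2 without wt replicate 1 or shAgo2 replicate 1 and 3 without wt replicate 2 or shAgo2 replicate 2, with EGR1 and FOSL2 passing each time. JUND was also lost with DESeq2 (adjusted p = 0.019) and had a log2 fold change of 0.20 (adjusted p = 0.351) with counts rebuilt from TPM by transcript length.

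The hairpin of the libraries labelled shDrosha is directed at the other microRNA processing nuclease, although DROSHA chromatin RNA was not lower in them. ATF3 rose from 11.1 and 11.7 CPM in wt to 29.9 and 25.3, a log2 fold change of 1.27 (SE 0.15, adjusted p = 0.0018). FOSL2 rose from 8.95 and 9.03 CPM to 13.1 and 12.8 (log2 fold change 0.53, SE 0.13, adjusted p = 0.0467). At the threshold for shDrosha, an adjusted p under 0.05, 2 of 10 members were called higher and 0 lower, beside 1.19% of all genes called higher and 2.18% called lower. These shares stand for 392 and 718 genes, which became 768 and 527 with scaling to library size alone, 26 and 46 without wt replicate 1 and 32 and 58 without wt replicate 2. EGR1 was at 2.34 and 1.85 CPM (log2 fold change 1.28, SE 0.36, adjusted p = 0.0771) and FOS at 1.83 and 1.69 (0.93, SE 0.32, adjusted p = 0.134). Both lay above wt in both libraries without passing. KLF6, a zinc finger factor of the Krüppel-like family, was at 58.2 and 50.3 CPM (0.32, SE 0.10, adjusted p = 0.103). The log2 fold changes of FOSB, JUN, JUNB, JUND and IER2 were between 0.07 and 0.35.

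Both shDrosha libraries were above both wt libraries in 8 members (FOS, FOSB, FOSL2, JUNB, EGR1, IER2, ATF3 and KLF6), as in 24.5% of all genes, and below in 0, as in 24.6%. The median log2 fold change was 0.33 over members and 0.0049 over all genes. The call of ATF3 passed under each of 16 alternatives. The call of FOSL2 passed under 6 of 16 and was lost without either wt, either shAgo2 or either shDrosha library. The 3 comparisons with wt share the same 2 wt libraries, so that members above wt in several of them do not count as separate observations.

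**Figure D2:**
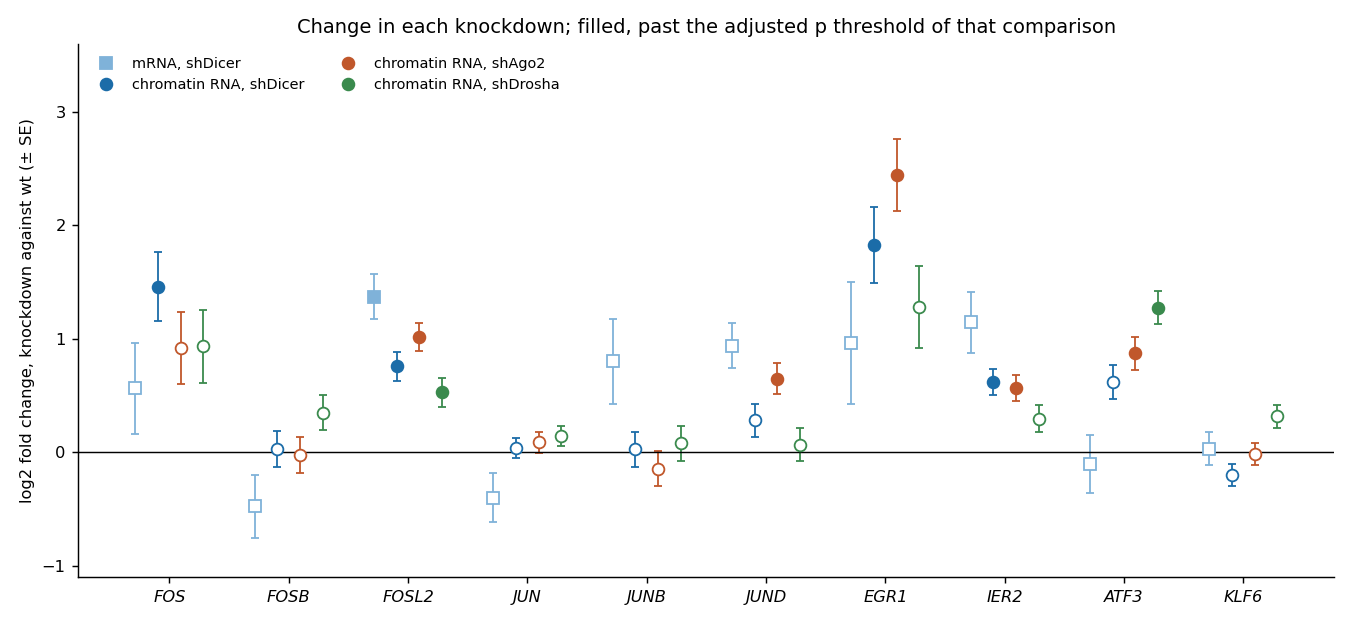
Log2 fold change against wt (log2 units, bars 1 standard error) of each member in the 3 chrRNA-seq comparisons and in mRNA-seq of shDicer cells, with squares for mRNA, circles for chromatin RNA and filled symbols for changes that passed the threshold. EGR1 at 1.83, 2.45 and 1.28 in chromatin RNA stands above JUN at 0.04, 0.09 and 0.14.

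The knockdowns were then compared directly with each other, without wt. Between shDicer and shAgo2 chromatin RNA, 0 members passed the threshold of 0.005 with edgeR, beside 1.37% of all genes called higher and 1.34% called lower in shDicer. At an unadjusted p under 0.05 there were 3 members with edgeR and 0 with DESeq2. These were JUND (−0.37, SE 0.13), EGR1 (−0.62, SE 0.24, adjusted p = 0.145) and FOSL2 (−0.26, SE 0.11), all with more RNA in shAgo2. The difference for FOSL2 was 0.15, of opposite sign, with length-scaled counts. FOS differed by 0.54 (SE 0.26, adjusted p = 0.233) with more RNA in shDicer.

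Against the mean of both inducible lines, shDrosha chromatin RNA held more ATF3 and KLF6. The log2 difference, lines minus shDrosha, was −0.53 for ATF3 (SE 0.12, adjusted p = 0.00307) and −0.42 for KLF6 (SE 0.084, adjusted p = 0.0015). These 2 members were called lower and 0 higher, beside 12.3% and 12.6% of all genes. KLF6 was thus at 50.3 to 58.2 CPM in shDrosha, 34.9 to 43.5 in the lines and 42.1 to 45.0 in wt. EGR1 leaned the other way with a difference of 0.86 (SE 0.24, adjusted p = 0.0129), as did JUND (0.40, adjusted p = 0.0212), FOSL2 (0.36, adjusted p = 0.015) and IER2 (0.30, adjusted p = 0.0275), and none of these passed. Neither member was called without shAgo2 replicate 1, shAgo2 replicate 2 or shDrosha replicate 1, and 1 was called without either wt library. Transfection against induction, and parental cells against a selected line, go with this contrast and cannot be told apart from the hairpin.

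In mRNA of shDicer cells, FOSL2 rose and no member fell. FOSL2 was at 2.27, 3.65 and 3.48 CPM in wt and at 8.23, 7.49 and 8.46 in shDicer cells, so that the groups were apart. Its log2 fold change was 1.37 (SE 0.20, adjusted p = 0.00016). At an adjusted p under 0.001, 1 of 10 members was called higher and 0 lower, beside 15.6% of all 15090 genes called higher and 14.2% called lower. IER2 was at 2.76, 2.94 and 5.53 CPM in wt and 8.62, 6.28 and 9.48 in shDicer cells (log2 fold change 1.14, SE 0.27, adjusted p = 0.00369). JUND was at 6.57, 10.2 and 8.91 CPM in wt and 17.9, 12.4 and 18.8 in shDicer cells (0.94, SE 0.20, adjusted p = 0.00203). For both, all shDicer samples were above all wt samples although the threshold was missed. Such separation was seen in 3 members, FOSL2, JUND and IER2, and in 32.8% of all genes, and the reverse in 0 members and 31.6% of genes. The median log2 fold change was 0.68 over members and 0.011 over all genes.

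The remaining members overlapped between the groups in mRNA. FOS was at 17.1, 27.8 and 46.4 CPM in wt and 42.5, 21.0 and 69.5 in shDicer cells (log2 fold change 0.56, SE 0.40, adjusted p = 0.251). EGR1 was at 2.84, 5.07 and 10.03 CPM in wt and 7.91, 4.46 and 21.3 in shDicer cells (0.96, SE 0.54, adjusted p = 0.15). Both groups thus spanned a several-fold range in these genes. JUNB was at 0.973, 1.33 and 1.64 CPM in wt and 3.53, 1.44 and 1.91 in shDicer cells (0.80, SE 0.38, adjusted p = 0.0916). JUN was at 95.1, 96.1 and 152 CPM in wt and 92.3, 60.2 and 107 in shDicer cells, and FOSB at 6.73, 6.32 and 10.2 against 6.97, 3.25 and 6.32. Their log2 fold changes were −0.40 (SE 0.21, adjusted p = 0.131) and −0.48 (SE 0.28, adjusted p = 0.164). ATF3 (−0.10, SE 0.26) was at 22.05, 22.3 and 42.9 CPM in wt and 23.6, 21.9 and 35.1 in shDicer cells, and the sign of its change turned under other settings. KLF6, with values from 7.74 to 9.62 CPM in all 6 samples, had a log2 fold change of 0.03 (SE 0.14) whose sign also turned. The call of FOSL2 was lost without wt replicate 1 (adjusted p = 0.0011). The number of members called was 2 without wt replicate 3 or without shDicer replicate 2.

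The members moved together between mRNA-seq replicates of the same group. Of the 3 wt samples, replicate 3 had the highest value for 8 of 10 members, against 37.8% of all genes, and replicate 1 the lowest for 8, against 31.1%. Of the shDicer samples, replicate 3 was highest for 7 members, against 36.4% of genes, and replicate 2 lowest for 9, against 25.0%. EGR1 spanned 1.77 log2 units in wt and 2.21 in shDicer samples, wider than 98.6% and 99.4% of genes. FOS spanned 1.43 and 1.72 log2 units, at percentiles of 97.4 and 98.7. The median gene spanned 0.23 and 0.30. KLF6 (0.31 and 0.13) and, in shDicer samples, FOSL2 (0.17) did not share these swings. The wt sample with the highest values has the lowest depth of the 6, and the shDicer sample with the highest values has the greatest. In chrRNA-seq a span covers 2 libraries instead of 3, so its size is not directly comparable. The largest span of a member there was 0.73, for EGR1 in shDicer, at a percentile of 94.5 among all genes. FOS spanned 0.62 in wt, at a percentile of 91.6. EGR1 in wt and FOS in shDicer were at percentiles of 71.4 and 59.2.

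Chromatin RNA of wt cells was next set against wt mRNA, with library sizes scaled by TMM. The TMM factors of this fit ran from 0.589 to 2.10, so the values are not plain shares of a library. Relative to mRNA, FOS, EGR1, ATF3, FOSB, JUND and JUN were lower in chromatin RNA and KLF6 was higher. All 10 members lay below the median gene on this count scale, but not all by TPM. The median log2 difference, chromatin RNA minus mRNA, was −1.65 over members and 1.89 over all 31106 genes tested. At an adjusted p under 0.005, 6 members were called lower and 1 higher, where 25.4% of all genes were called lower and 53.2% higher. FOS differed by −6.67 (SE 0.60, adjusted p = 2.99e-08), the 0.38th percentile of all genes. It had 211, 312 and 453 counts in the wt mRNA samples and 19 and 11 in the wt chromatin samples. EGR1 differed by −4.39 (SE 0.72, adjusted p = 3.59e-05) and ATF3 by −2.99 (SE 0.28, adjusted p = 4.94e-08). These 3 genes were at or under the 6.78th percentile of all genes and the 11.3th percentile of the 16408 protein-coding genes.

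FOSB differed by −2.23 (SE 0.27), JUND by −1.75 (SE 0.22) and JUN by −1.54 (SE 0.21). The values of FOSL2 (−0.12, SE 0.19, adjusted p = 0.569), IER2 (0.27, SE 0.24, adjusted p = 0.301) and JUNB (0.63, SE 0.32, adjusted p = 0.0772) did not pass. KLF6 differed by 0.68 (SE 0.13, adjusted p = 0.000143). Against the median of protein-coding genes, −0.17, 6 members lay below and FOSL2, IER2, JUNB and KLF6 above. The intronless genes fell on both sides, with JUN and JUND lower and JUNB not called. With scaling to library size alone the median gene moved to 3.48 and 4 members were called higher and 3 lower, and over all genes 23777 were higher and 3890 lower against 16533 and 7907 in the main analysis. FOS, EGR1, ATF3 and FOSB kept a negative sign and JUNB and KLF6 a positive sign under every scaling run, whereas the signs of FOSL2, JUN, JUND and IER2 turned under at least 1. On the log2(TPM + 1) scale with limma, 4 members were called higher and 1, FOS, lower, of 28448 genes higher and 2206 lower in all.

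The labels name polyA RNA for the mRNA-seq samples while the study's methods describe depletion of ribosomal RNA, so the RNA on the mRNA side of this difference is not settled by the sources used here. The library kit, the cells and, for wt, the doxycycline treatment change together with the RNA fraction and cannot be told apart from it. Summed marker RNAs differed between the fractions, but not each marker. MALAT1, NEAT1, KCNQ1OT1 and TUG1, known chromatin-retained RNAs, summed to 4332 to 10710 CPM in the chrRNA-seq libraries and to 377.5 to 815.4 CPM in the mRNA-seq libraries. TUG1 was not higher in wt chromatin RNA (88.6 against 97.2 CPM), and NEAT1 alone went from 738 CPM in wt to 7704 in shDicer chromatin RNA. ACTB, GAPDH, RPLP0 and EEF1A1 summed to 1394 to 2980 CPM in the former and to 16470 to 22970 CPM in the latter, most of it EEF1A1, while ACTB was at 74.4 CPM in wt mRNA and 119 in wt chromatin RNA.

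**Figure D3:**
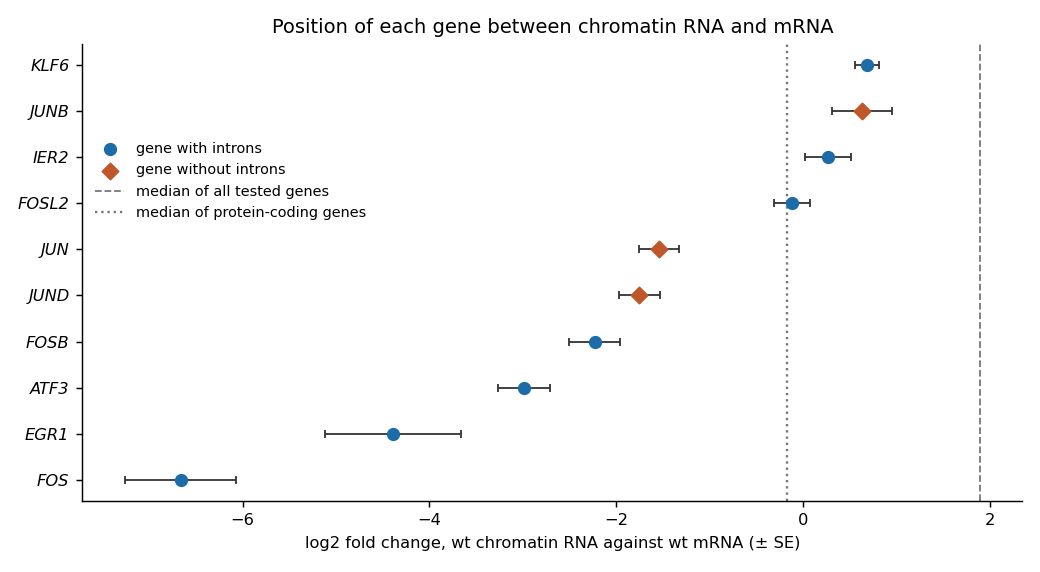
Log2 difference of wt chromatin RNA and wt mRNA for each member on the x axis (log2 units, bars 1 standard error), with diamonds for genes without introns, circles for the others, a dashed line for the median of all genes at 1.89 and a dotted line for that of protein-coding genes at −0.17. FOS lies lowest at −6.67, and all 10 members lie below the median of all genes on this count scale. By TPM, KLF6 lies above the median of expressed genes. FOSL2, JUN, JUND and IER2 change sign under another scaling.

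It was also tested whether the change in shDicer cells differs between chromatin RNA and mRNA, as the interaction of the fraction and the group. With edgeR 0 of 10 members passed an adjusted p of 0.005, beside 1.21% of all genes called higher and 3.82% called lower. The split of 375 and 1189 genes became 505 and 750 with scaling to library size alone, where the median gene moved from −0.0986 to 0.0144, and 1138 and 1135 with DESeq2, which also tested more genes, 45635 against 31106. At an unadjusted p under 0.05 there were 2 members with edgeR, FOSL2 (−0.70, SE 0.24, adjusted p = 0.0742) and JUND (−0.74, SE 0.29, adjusted p = 0.112), both with the smaller rise in chromatin RNA, and 0 with DESeq2. For FOS (0.81, SE 0.89) and EGR1 (0.76, SE 0.97) the standard error was as large as the difference. Of the other immediate early genes listed further on, CCN2 (3.03, SE 0.32), CCN1 (2.08, SE 0.28) and MYC (1.12, SE 0.19) passed with the larger value in chromatin RNA. The induction lasted 72 h in chrRNA-seq and 7 days in mRNA-seq. Wt cells had doxycycline in mRNA-seq, and none is stated for them in chrRNA-seq. Neither difference can be told apart from the fraction.

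The transcripts to which the counts of a gene were assigned differed between the assays for some members. The reference of the study holds spliced and non-coding transcripts, so RNA from introns is counted only where a transcript retains the intron. FOS-201, the transcript with 4 exons, took 71.7 to 89.8% of FOS counts in mRNA-seq and 0 to 47.4% in chrRNA-seq, where it had at most 9.88 counts. FOS-208, with 3 exons, took 4.99 to 17.0% and 25.4 to 69.5%. For ATF3 the difference was clearer. ATF3-206, with 4 exons, took 19.8 to 58.9% of ATF3 counts in mRNA-seq and 0 counts in all 8 chrRNA-seq libraries. The retained-intron transcript ATF3-208 took 7.89 to 11.4% in mRNA-seq and 34.1 to 42.4% in chrRNA-seq, with no overlap. ATF3-209, without a defined coding sequence, took 16.3 to 30.2% and 41.3 to 49.8%.

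KLF6-204, with 2 exons, took 9.52 to 19.6% of KLF6 counts in mRNA-seq and 35.6 to 45.1% in chrRNA-seq. The main transcript KLF6-206 took 36.1 to 51.3% in chrRNA-seq and up to 85.7% in mRNA-seq, although in wt mRNA replicate 3 it took 0% and KLF6-207 took 74.4%. JUND-202, a transcript with 2 exons, took at most 1.56% in mRNA-seq and 9.04 to 23.7% in chrRNA-seq. FOSL2-203 took at most 3.01% and 7.41 to 10.2%. IER2-203, a single-exon transcript, overlapped between the assays, with 27.2 to 72.0% and 47.0 to 69.5%. JUN, JUNB and EGR1 have 1 transcript each in the files. These shares are estimates of the authors' pseudoaligner, and no test was run on them.

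**Figure D4:**
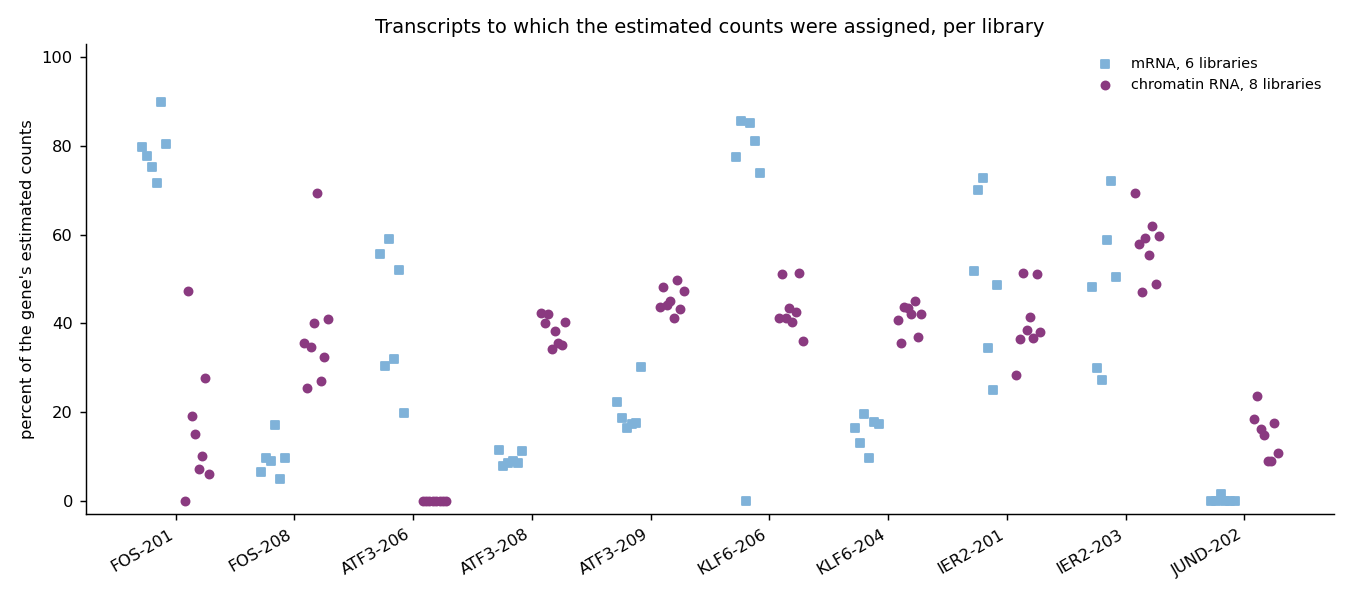
Share of a gene's estimated counts (percent) taken by selected transcripts with a square for each of the 6 mRNA-seq and a circle for each of the 8 chrRNA-seq libraries. The squares of ATF3-208 lie at 7.89 to 11.4% and its circles at 34.1 to 42.4%. The retained-intron transcript FOSB-205, which overlapped between the assays, is not shown.

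The wider set of immediate early genes was described from a list of 46 others. In chromatin RNA, 16 of 45 tested rose and 5 fell in shDicer, 17 rose and 8 fell in shAgo2, and 7 rose and 1 fell in shDrosha cells. Of all genes, 11.0% rose and 10.5% fell in shDicer, 12.5% and 12.1% in shAgo2, and 1.19% and 2.18% in shDrosha cells. The median log2 fold changes of the list were 0.34, 0.45 and 0.16. CCN2, a matricellular target of YAP and SRF signalling, rose by 2.28 (SE 0.17, adjusted p = 9.85e-07) in shDicer from 1.78 and 1.83 CPM to 8.37 and 9.27. DUSP6, a phosphatase that turns off ERK, rose by 2.42 (SE 0.23, adjusted p = 6.40e-06) in shAgo2, from 1.19 and 1.39 CPM to 6.25 and 7.59. DUSP5, another phosphatase of ERK, rose by 2.16 in shDicer and GADD45G, a stress sensor, by 2.54 in shAgo2. In shDrosha, GADD45A (0.84), NR4A3 (0.79) and PPP1R15A (0.73) rose and SOX9 (−0.82) fell. In mRNA of shDicer cells 3 of 36 rose and 6 fell, beside 15.6% and 14.2% of all genes, with BTG2, an antiproliferative gene, rising by 2.11 (SE 0.14, adjusted p = 5.43e-07) and ARC by 2.57 (SE 0.48, adjusted p = 0.000903).

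Of these genes, IER3 and DUSP2 were near absent in one set of libraries. IER3 had 0 counts in every wt and shDrosha library of both assays, between 2.66 and 3.86 CPM in mRNA of shDicer cells, and between 2.84 and 4.19 in chromatin RNA of shDicer and shAgo2 cells. DUSP2 was at 3.79 to 4.89 CPM in wt mRNA and at most 0.0596 in shDicer mRNA. Its chromatin RNA was at 6.17 and 7.20 CPM in wt, 5.14 and 5.06 in shDrosha, 0.316 and 0.106 in shDicer and 0.0492 and 0.109 in shAgo2 cells. In both genes the inducible lines stood together against wt and shDrosha.

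Among 20 dimer partners of AP-1 and the ATF/CREB family, 2 rose and 4 fell of 16 tested in mRNA, and 2 rose and 5 fell of 18 in chromatin RNA of shDicer as well as of shAgo2 cells. The counts higher lie near the shares of all genes called higher, 15.6% in mRNA and 11.0% and 12.5% in chromatin RNA, and those lower stand beside 14.2%, 10.5% and 12.1%. BATF3, a partner of JUN in immune cells, rose in mRNA (3.15, SE 0.25) and in chromatin RNA of shDicer (1.76, SE 0.16) and shAgo2 cells (1.42, SE 0.16). CREM, a CREB family member, rose in shDicer mRNA (1.03) and in shAgo2 chromatin RNA (1.04). MAF fell in all 4 comparisons, by 0.98 in mRNA and by 0.54, 1.15 and 0.40 in chromatin RNA of shDicer, shAgo2 and shDrosha cells, the last being the only call in shDrosha. The small MAF protein gene MAFG fell by 0.999 and 1.13 in chromatin RNA of shDicer and shAgo2 cells. ATF4, which acts upstream of ATF3 in the amino acid response, fell by 0.90 in mRNA.

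Of 48 upstream regulators, such as MAP kinases, their kinases, SRF cofactors, CREB coactivators and pausing factors, 4 rose and 5 fell in mRNA. In chromatin RNA 3 rose and 11 fell in shDicer, 5 rose and 9 fell in shAgo2, and 0 rose and 2 fell in shDrosha cells. Of all genes, 15.6% rose and 14.2% fell in mRNA, and 10.5%, 12.1% and 2.18% fell in the 3 chromatin comparisons, where 11.0%, 12.5% and 1.19% rose. CREBBP, the coactivator of CREB, fell by 0.88 in mRNA, 0.90 in shDicer and 0.87 in shAgo2 chromatin RNA. NELFB, a subunit of the pausing factor NELF, fell by 0.79, 0.99 and 0.42 in chromatin RNA of shDicer, shAgo2 and shDrosha cells. MAPK13, a p38 kinase, rose by 3.11 in mRNA and by 0.77 and 0.81 in chromatin RNA of shDicer and shAgo2 cells.

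A list of 20 genes held factors in the turnover of AU-rich mRNAs, not all of which promote decay. Of 19 tested in mRNA, 1 rose and 5 fell. In chromatin RNA 2 rose and 6 fell in shDicer, 2 and 5 in shAgo2, and 0 and 2 in shDrosha cells. The shares of all genes called lower were 14.2%, 10.5%, 12.1% and 2.18% in that order, and those called higher 15.6%, 11.0%, 12.5% and 1.19%. ZFP36, which encodes the decay factor tristetraprolin and is itself an immediate early gene, rose by 1.47 (SE 0.23) in shDicer and 1.27 (SE 0.23) in shAgo2 chromatin RNA. It was at 2.08 and 2.84 CPM in wt, 7.74 and 5.83 in shDicer, 6.49 and 5.29 in shAgo2 and 2.57 and 3.43 in shDrosha cells. HNRNPD, the decay factor AUF1, fell by 1.12 in mRNA and 0.61 in shDicer chromatin RNA. KHSRP, another decay factor, fell by 0.86, 0.97 and 0.84 in chromatin RNA of shDicer, shAgo2 and shDrosha cells, and the exosome subunit gene EXOSC9 by 0.94 in mRNA and 0.84 and 0.66 in chromatin RNA of shDicer and shAgo2 cells.

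Wt chromatin RNA was also set against wt mRNA for these lists, where 25.4% of all genes were called lower and 53.2% higher. It was lower for 26 and higher for 9 of 45 other immediate early genes, and lower for 16 and higher for 1, ZFP36, of 20 turnover genes. For 18 dimer partners these counts were 8 and 4, and for 48 upstream regulators 30 and 14. The list medians, −0.94, −1.46, −0.33 and −1.15 in that order, lay below the median of all genes (1.89) and that of protein-coding genes (−0.17), the dimer partners by little in the latter case.

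The genes whose level followed FOS, JUN or EGR1 most closely were sought among 15597 genes over the 8 chrRNA-seq libraries, which fall into 4 groups of 2 and share their processing. For EGR1 the closest were PARP15 (Pearson r = 0.983), ENSG00000233539 (0.974), ENSG00000273374 (0.973), TTC23-AS1 (0.969) and GPR176 (0.968). For FOS they were ENSG00000253476 (0.977), TCL6 (0.969), CYSTM1 (0.960), UBE2E1 (0.959) and LINC00869 (0.952), and for JUN TMEM30A (0.976), DOCK1 (0.976), WDFY3 (0.971), SNORA77B (0.966) and NOPCHAP1 (0.965). None of these is a member. Of the members, FOSL2 was the closest to EGR1 with r = 0.951, at rank 54 of 32873 genes, followed by IER2 (0.857), JUND (0.826) and FOS (0.726), and JUNB was the most distant (−0.451). JUN lay closest to ATF3 (0.745) and KLF6 (0.713) and had r = 0.103 with FOS.

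The change of called members was set beside the median of their chromosomal surroundings. Called members are those with a large change, so a gap to their surroundings follows from the call and is not separate evidence. Of the 50 nearest tested genes, the median log2 fold change in shAgo2 chromatin RNA was 0.30 around EGR1, which changed by 2.45, and 0.04 around FOSL2, which changed by 1.02. In shDrosha it was 0.03 around ATF3, which changed by 1.27, and in shDicer 0.16 around FOS, which changed by 1.46. For the JUN gene, which was not called, member and surroundings differed by 0.0752 or less in the 3 chromatin comparisons with wt.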

How the data were processed

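The data were 6 mRNA-seq and 8 chrRNA-seq samples, and 6 small RNA samples were not analysed here. The authors ran kallisto 0.43.1, strand-specific, against cDNA and ncRNA of Ensembl 89. The estimated counts deposited by the authors are raw and fractional, and the TPM values deposited by the authors are scaled by effective transcript length. Trimming is not given in the sources used here. Of 217082 transcripts, 193697 (89.2%) matched GENCODE 44 without version and carried 93.4 to 94.8% of counts. Counts were summed per gene and rounded.

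edgeR 4.0.16 (R 4.3.3, filterByExpr, TMM, quasi-likelihood test, Benjamini-Hochberg over all genes) was fitted to the mRNA-seq samples, to the chrRNA-seq samples, and to wt and shDicer samples of both. Adjusted p thresholds were 0.001 for mRNA, 0.05 for shDrosha and 0.005 otherwise. Standard errors were derived from each fold change with its F value, and TMM library sizes were used for CPM. The depth allows 3 counts, 0.184 to 0.311 CPM in mRNA-seq and 0.149 to 0.183 in chrRNA-seq, as a floor for counting error only, since reads carry no molecular identifiers.

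DESeq2 1.42.0, limma 3.58.1 (log2(TPM + 1)), library size scaling, no low-count filter, counts rebuilt from TPM (length-scaled), kept unmatched transcripts, an extra fold criterion, a replicate block and left-out replicates were alternatives. In simulated data 200 genes differed by a log2 size of 2. Of these, edgeR recovered 190 among 15086 genes of the mRNA-seq design with 0 false calls. It recovered 184 among 32423 genes for shDicer chromatin RNA with 0. For wt chromatin RNA against mRNA it recovered 172 among 28811 genes with 1. Apart from the changed genes, all simulated libraries of a design had the same composition and a single dispersion. The simulation therefore does not cover the difference in composition between the fractions. Nor does it cover genes with a wide spread, such as FOS and EGR1.

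All 10 members are named. Of each other list, up to 4 called genes with the largest change per comparison are named, and for FOS, JUN and EGR1 the 5 most alike genes, among those whose log2 CPM averaged 3 or more. A called gene at 0 in a whole group is given by its CPM alone. Members and lists were chosen with earlier results of these data known.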

Additional observations from a re-analysis of the deposited data

Results flagged for a closer look

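In chromatin RNA, 2 members differed in their change against wt between the inducible lines and the shDrosha cells, by the edgeR test of the difference itself. The log2 difference of the mean of shDicer and shAgo2 against shDrosha was −0.528 for ATF3 (adjusted p = 0.00307) and −0.425 for KLF6 (adjusted p = 0.0015). All 4 libraries of the lines were below both shDrosha libraries for each gene. The share of all genes separated in this way was not counted, so the separation adds nothing to the test. These are 2 of 10 members called lower and 0 higher, beside 12.3% and 12.6% of all genes. Of 16 alternatives, ATF3 passed in 7 and KLF6 in 11, and both kept their sign in all 16.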

How the results depend on the processing

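Of the results for single members, 1135 alternatives kept direction and side of the threshold, 63 lost a call, 27 gained one and 35 turned sign. Of the counts of members called, 92 stayed equal or close to the main count and 42 moved further. Close counts, such as 5 against 4 in shDicer chromatin RNA with library size only, were put with those that stayed. The cause of these moves was not tested, except that leaving out a library leaves fewer samples. In mRNA of shDicer cells 1 member was called, against 2 with DESeq2, 6 (5 higher, 1 lower) without the low-count filter, 0 with length-scaled TPM, 0 with unmatched transcripts kept and 0 to 2 with each replicate left out. In shDicer chromatin RNA 4 were called, against 2 with an absolute log2 fold change above 1, 2 with length-scaled TPM and 0 to 5 with each replicate left out. In shAgo2 the 5 calls became 2, 3 and 2 with the fold criterion, DESeq2 and length-scaled TPM, and 2 to 5 with replicates left out. In shDrosha the 2 calls became 1 with the fold criterion, DESeq2, length-scaled TPM or unmatched transcripts, and 1 to 3 with replicates left out. For the mean of the lines against shDrosha the 2 calls became 0 with the fold criterion, length-scaled TPM or unmatched transcripts, 1 with only the groups compared and 0 to 3 with replicates left out. Over all genes, the 392 calls higher and 718 lower in shDrosha became 26 and 46 without wt replicate 1, 32 and 58 without wt replicate 2, and 127 and 271 with unmatched transcripts kept. In shDicer against shAgo2, 450 and 441 became 36 and 71 without shAgo2 replicate 2, 56 and 73 without shAgo2 replicate 1, and 121 and 123 with unmatched transcripts kept. In mRNA of shDicer cells the 2347 genes called higher became 3747 without the filter.

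The replicate numbers paired the mRNA-seq samples weakly at most and showed no consistent pairing in chrRNA-seq. Deviations of same-numbered samples correlated by 0.0455 to 0.0812 in mRNA-seq, where each sample correlated best with its own number, and by −0.131 to 0.0279 in chrRNA-seq. With the replicate block, 2 members were called in mRNA, 1 in shDrosha and 1 in the lines against shDrosha. With the shDrosha numbers crossed in the block, chosen after seeing the data, 4 were called in shDrosha.

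With length-scaled TPM the sign turned in mRNA for ATF3 (0.00027) and KLF6 (−0.022), in shAgo2 for FOSB (0.032), in shDrosha for JUND (−0.19), in shDicer against shAgo2 for FOSL2 (0.15), and in wt chromatin RNA against mRNA for FOSL2 (0.20) and IER2 (−0.26). With library size only it turned in shAgo2 for FOSB (0.0081) and KLF6 (0.020), and in wt chromatin RNA against mRNA for FOSL2 (1.50) and JUN (0.073). With limma on TPM it turned there for FOSL2 (1.07), JUN (0.28) and JUND (0.78), and in the difference of the shDicer change between fractions for FOSL2 (0.29) and IER2 (0.089). With replicates left out, changes near 0 turned within these ranges. In mRNA, KLF6 went from −0.050 to 0.10 and ATF3 from −0.34 to 0.27. In shDicer, FOSB went from −0.10 to 0.16, JUN from −0.044 to 0.12 and JUNB from −0.047 to 0.096. In shAgo2, FOSB went from −0.16 to 0.10, KLF6 from −0.068 to 0.028 and JUNB from −0.34 to 0.019. In shDicer against shAgo2, FOSB went from −0.047 to 0.16, JUN from −0.13 to 0.030 and IER2 from −0.012 to 0.12. JUN in the lines against shDrosha went from −0.17 to 0.0081, and FOSL2 in wt chromatin RNA against mRNA from −0.30 to 0.012. The low counts of FOS and EGR1 in wt chromatin RNA limit the precision of their changes.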
